A study of Mus musculus with 30 samples.

Results

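The comparison described here is that of callus from diet-induced obese (DIO) mice on d5 with callus from DIO mice on d3 after an osteotomy, and it covers all genes of the deposited count table. The 3 libraries of DIO d5 and the 3 of DIO d3 were chosen by their diet and day alone, out of 30 libraries in all, so no measured value entered their choice. All mice were male C57BL/6J mice, 20 weeks old at surgery. Each had an open cut through the shaft of the right tibia, held by a nail in the marrow cavity, and DIO mice stayed on a high-fat diet until harvest. A group of lean mice, given a lean diet and the same osteotomy, was sampled on both days, again with 3 mice a day, and is used below only for comparison. Each library came from 1 callus, freed of soft tissue and cut away from the intact bone, so every value is that of 1 mouse. The tissue is a mixture of cells, and in such bulk RNA fewer cells of a type and less RNA per cell cannot be told apart.

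A stabilised fracture of this kind heals largely through cartilage. Blood clot and inflammatory cells come first, then cells of the periosteum become chondrocytes, which lay down a matrix of type II collagen and aggrecan, enlarge, switch to type X collagen and are replaced by bone. Osteoclasts and related cells, fused from precursors of the monocyte line, later resorb the mineralised cartilage, and muscle fibres injured at the site regenerate at the same time.

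The 6 libraries held between 15597137 and 22743115 counts. Their levels are given as CPM, which are counts scaled to a common library total, here with TMM factors that adjust for differences in composition, and always in the order of mice 1 to 3. CPM are not divided by the length of a gene and serve to compare days, not genes. Mitochondrial transcripts took between 1.72% and 2.47% of the counts in 5 of the libraries and 3.34% in that of d3 mouse 1. The summed CPM of 35 genes of adult skeletal muscle ran from 19932 to 35148 on d3 and from 11808 to 24538 on d5, highest in d3 mouse 1 and lowest in d5 mouse 1. The same d3 mouse had the highest summed level of monocyte and macrophage genes and the lowest of cartilage, fibrous and osteoblast genes of the 6 mice. The tissue label could be checked on the defining genes of cartilage and bone, and Col1a1, the collagen of bone and fibrous tissue, stood at 14996, 28362 and 26446 CPM on d3 and at 31859, 25958 and 28576 CPM on d5.

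Of 16995 genes tested, 285 (1.68%) passed an adjusted p of 0.05 between the days, with 237 (1.39%) higher and 48 (0.282%) lower on d5. "Called" is used below for a gene past that threshold in edgeR's quasi-likelihood test, fitted over the 18 DIO libraries of all 6 days with Benjamini-Hochberg adjustment over all genes tested. Fold changes are d5 over d3 on the log2 scale, with their standard error. In 283 of the 285 called genes the 3 values of one day lay entirely beyond those of the other. Over all genes tested, such a separation was found for 2392 genes (14.1%) with d5 above d3 and for 2189 (12.9%) with d5 below. The median log2 fold change of all genes tested was 0.0049, with 8588 genes above 0. At an unadjusted p under 0.05 there were 2333 of the 16995 genes, 1286 higher and 1047 lower. These are the background for such counts in the lists below.

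The number of calls was lower in each fit with 1 mouse left out, which also has fewer mice in a group. Without d3 mouse 1 it fell to 90, without d3 mouse 2 to 126, without d5 mouse 2 to 146 and without d5 mouse 1 to 183, and all 285 genes kept their direction in each of these fits, under the other scalings and in DESeq2. DESeq2 gave 403 genes higher and 177 lower, so that its share of higher genes was 69.5% against 83.2%. When the spread was taken from the 6 libraries of d3 and d5 alone, 477 genes were higher and 341 lower. That fit tested 15591 genes against 16995 in the main fit, and 279 of the 285 called genes were found with the same direction in it. No gene named in this text turned its sign there, and some of them were not tested in it. DESeq2 on those 6 libraries tested 24112 genes and kept the direction of all 285. Because the calls varied with the mouse left out, each called gene below has a value after "at most". It is the largest adjusted p found when any 1 of the 6 mice was left out.

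**Figure D1:**
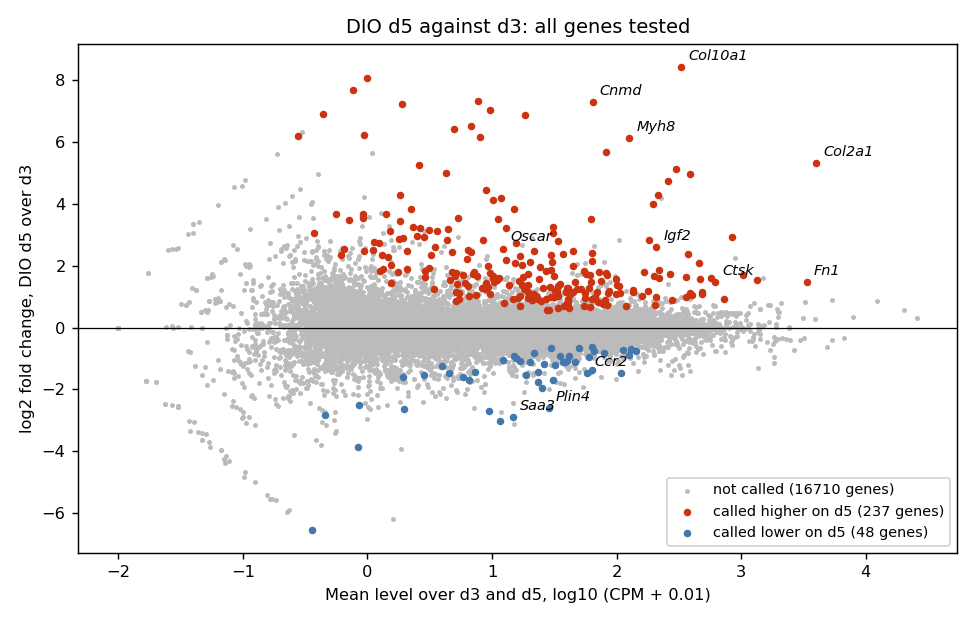
Each point is 1 of the 16995 genes tested. The horizontal axis is the mean level over both days as log10 of CPM plus 0.01, and the vertical axis is the fitted log2 fold change of DIO d5 over d3. Red points are the 237 genes called higher and blue points the 48 called lower. The increases reach far larger sizes than the decreases at high levels, with Col2a1 and Col10a1 at the upper right.

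Genes of the cartilage matrix made up the group with the most calls. Of 30 such genes tested, 18 rose on d5 and 0 fell, and the median change was 2.71 on the log2 scale, against 0.0049 over all genes. Their summed level ran from 2873 to 4912 CPM in the d3 mice and from 14687 to 24779 CPM in the d5 mice. Without d3 mouse 1 the number of the 30 that were called was 9, while the median was 2.48 at the lowest of the 6 fits with a mouse left out. DESeq2 called 23 of them.

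Col2a1, which lies on chr15:97975602-98004695 of GRCm38 and encodes the main fibrillar collagen of cartilage, stood at 81.4, 98.6 and 408 CPM in the d3 mice and at 10379, 7831 and 5118 CPM in the d5 mice. The highest d3 mouse was far below the lowest d5 mouse, and the rise was 39.7-fold (log2 fold change 5.31 ± 0.93, adjusted p = 0.00628, at most 0.05001). Only the fit without d3 mouse 1 put Col2a1 outside the threshold, and without d3 mouse 3 the rise was 86.7-fold. Type IX collagen, which decorates the surface of the type II fibrils, is built from the products of Col9a1, Col9a2 and Col9a3. Col9a1 was at 8.11, 13.1 and 34.4 CPM on d3 and at 646, 514 and 333 CPM on d5 (log2 fold change 4.75 ± 0.77, adjusted p = 0.00318, at most 0.0314). The other 2 chains, chosen after their values were seen, rose by 5.13 and 4.97 on the log2 scale (adjusted p at most 0.0560 for each). Without d3 mouse 3 the rise went from 26.9-fold to 46.99-fold for Col9a1, from 35.1-fold to 65.4-fold for Col9a2 and from 31.4-fold to 51.8-fold for Col9a3. Type XI collagen, which sits in the core of the same fibrils, was already present on d3. Col11a1 went from 238, 631 and 592 CPM to 1786, 1712 and 1238 CPM, with no overlap of the days (log2 fold change 1.70 ± 0.30, adjusted p = 0.00678, at most 0.0286). Col11a2 showed a rise of similar size, by 1.53 on the log2 scale (adjusted p at most 0.0889).

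Among the non-collagen matrix genes, Matn3 and Matn1 encode matrilins, adaptor proteins that link collagen fibrils to proteoglycans. Matn3 was at 1.501, 3.36 and 4.6 CPM on d3 and at 180.0, 213 and 91.03 CPM on d5, a rise of 50.96-fold (log2 fold change 5.67 ± 0.86, adjusted p = 0.00229, at most 0.0251). Matn1 was close to absent on d3, with 5 reads in the 3 mice together, and had 912 reads on d5 (log2 fold change 7.34 ± 1.28, adjusted p = 0.00585, at most 0.0456). Cnmd encodes chondromodulin, a cartilage glycoprotein that inhibits vessel growth, and it was at 0.5404, 0.615 and 1.33 CPM and then 126, 176 and 79.8 CPM. Every d5 mouse exceeded every d3 mouse by a wide margin (log2 fold change 7.28 ± 1.04, adjusted p = 0.00152, at most 0.0193). Snorc, a transmembrane proteoglycan of cartilage, had 0, 0.123 and 0.847 CPM on d3 and 55.9, 33.02 and 20.3 CPM on d5 (log2 fold change 6.89 ± 1.14, adjusted p = 0.00393, at most 0.0356). Ucma, a secreted cartilage protein, had 0.06004, 0.205 and 0.121 CPM and 14.1, 34.99 and 8.17 CPM (log2 fold change 7.04 ± 1.27, adjusted p = 0.007300, at most 0.0546). Both had at most 14 reads in a d3 mouse and at least 145 in a d5 mouse. Clec3a, a cartilage lectin, changed in the same way from 0.1201, 0 and 0.242 CPM to 12.7, 10.4 and 6.03 CPM (log2 fold change 6.42 ± 0.86, adjusted p = 0.000811, at most 0.0113). For Matn1, Snorc, Ucma and Clec3a the d3 level rests on few reads, from 5 in all for Matn1 to 17 in all for Snorc, so the size of the fold change is imprecise. Without d3 mouse 3 the rise of Snorc went from 119-fold to 459-fold and that of Clec3a from 85.7-fold to 172-fold. Clec3a was at 51.7-fold without d3 mouse 2, and Ucma went from 131-fold to 77.2-fold without d5 mouse 2.

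The RefSeq promoters (GRCm38.p6, 250 bases before to 50 bases after the start) of Cnmd, Col10a1 and Matn3 are shown because these 3 genes were among the 12 largest increases and have an entry in the promoter table, in which 12 of the 18 called cartilage matrix genes were found. Capitals mark a match to ACAATG or ACAAAG on either strand, a core that SOX proteins can bind.
Cnmd, chr14:79662134-79662433, minus strand: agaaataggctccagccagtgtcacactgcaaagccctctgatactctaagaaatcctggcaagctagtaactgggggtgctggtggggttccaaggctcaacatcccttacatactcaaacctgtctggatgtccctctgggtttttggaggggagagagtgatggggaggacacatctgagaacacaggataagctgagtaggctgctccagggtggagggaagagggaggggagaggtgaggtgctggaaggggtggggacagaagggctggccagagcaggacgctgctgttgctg
Col10a1, chr10:34389731-34390030, plus strand: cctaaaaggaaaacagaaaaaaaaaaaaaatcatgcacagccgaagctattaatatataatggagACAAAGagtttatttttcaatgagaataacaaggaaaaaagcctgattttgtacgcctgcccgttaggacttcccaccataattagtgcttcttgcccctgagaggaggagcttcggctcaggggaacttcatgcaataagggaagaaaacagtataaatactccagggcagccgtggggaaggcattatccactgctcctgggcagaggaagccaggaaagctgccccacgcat
Matn3, chr12:8947679-8947978, plus strand: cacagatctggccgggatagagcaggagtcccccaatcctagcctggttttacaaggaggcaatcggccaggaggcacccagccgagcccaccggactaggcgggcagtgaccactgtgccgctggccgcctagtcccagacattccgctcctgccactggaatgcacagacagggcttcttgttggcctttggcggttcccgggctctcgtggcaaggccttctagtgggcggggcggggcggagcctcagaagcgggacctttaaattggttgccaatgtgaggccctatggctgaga
The motif was found once in the Col10a1 promoter, 185 bases before the start, and not in the other two windows. Of 14 promoters of the called cartilage matrix genes 1 held it, against 9394 of the 32851 promoters in the table (28.6%). Col10a1 is not on the cartilage matrix list, so this 1 promoter is another one and is not shown. A match describes the letters of this window and nothing more.

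Acan, which encodes aggrecan, the large proteoglycan that makes cartilage hold water, did not pass the test. Its values were 183, 265 and 477 CPM on d3 and 1744, 1559.9 and 1111 CPM on d5, which do not overlap (log2 fold change 2.26 ± 0.65, adjusted p = 0.102). Comp, a pentameric glycoprotein that binds collagen, rose from 178, 138 and 274 CPM to 1989, 1370.0 and 1155 CPM (log2 fold change 2.94 ± 0.53, adjusted p = 0.00781, at most 0.0577). Scrg1, a small secreted protein of chondrocytes, went from 1.62, 1.804 and 1.94 CPM, almost the same in each mouse, to 21.9, 26.2 and 13.2 CPM (log2 fold change 3.51 ± 0.52, adjusted p = 0.00199, at most 0.0229). Hapln1, the link protein that ties aggrecan to hyaluronan and was chosen after its values were seen, was at 10.4, 16.6 and 35.7 CPM and 486, 529 and 208 CPM (log2 fold change 4.29 ± 0.73, adjusted p = 0.00538, at most 0.0469). The weakest d5 mouse for Hapln1 was still well above all d3 mice, and without d3 mouse 3 its rise went from 19.5-fold to 30.2-fold. Chadl, Prelp and Papss2 completed the 18 called genes. Of these, Chadl and Prelp, proteins that bind collagen, were chosen after their values were seen. They rose by 2.52 and 1.72 on the log2 scale (adjusted p at most 0.0781 and 0.0734). In Acan, Comp, Scrg1 and Hapln1 d5 mouse 3 had the lowest level of the d5 mice and d3 mouse 3 the highest of the d3 mice. Col27a1, a fibrillar collagen of cartilage that belonged to no list and was chosen after its values were seen, was at 136, 148 and 240.1 CPM and 681, 509 and 445 CPM (log2 fold change 1.64 ± 0.25, adjusted p = 0.00232, at most 0.0252).

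Among the 12 largest increases, 2 further genes belonged to no list. Ppp1r1b, an inhibitor of protein phosphatase 1 best known from neurons, was at 0.06004, 0.123 and 0.242 CPM and 19.2, 14.4 and 6.196 CPM (log2 fold change 6.51 ± 0.81, adjusted p = 0.000554, at most 0.00787). Meltf, a membrane-bound protein of the transferrin family, was at 0.2402, 0.04100 and 0.424 CPM and 21.2, 18.6 and 7.21 CPM (log2 fold change 6.15 ± 0.76, adjusted p = 0.000526, at most 0.00773). Both kept their call whichever mouse was left out. They had 8 and 12 reads on d3 in all, and the rise of Meltf was 71.1-fold, 46.3-fold without d3 mouse 2 and 120.0-fold without d3 mouse 3.

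Of 35 genes of glycosaminoglycan synthesis 3 rose and none fell, the median change being 0.25 (log2). Slc26a2, the sulphate transporter of chondrocytes, was at 40.8, 66.1 and 69.1 CPM and then 151, 165 and 136 CPM (log2 fold change 1.36 ± 0.19, adjusted p = 0.00132, at most 0.00933). Papss2, which makes the activated sulphate donor, rose from 47.8, 69.9 and 70.6 CPM to 139, 164 and 100.4 CPM (log2 fold change 1.10 ± 0.20, adjusted p = 0.00839, at most 0.0636). Slc35d1, a transporter of nucleotide sugars into the Golgi and endoplasmic reticulum, had 18.7, 19.1 and 20.3 CPM and 52.8, 45.97 and 33.9 CPM (log2 fold change 1.19 ± 0.17, adjusted p = 0.00171, at most 0.0183).

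**Figure D2:**
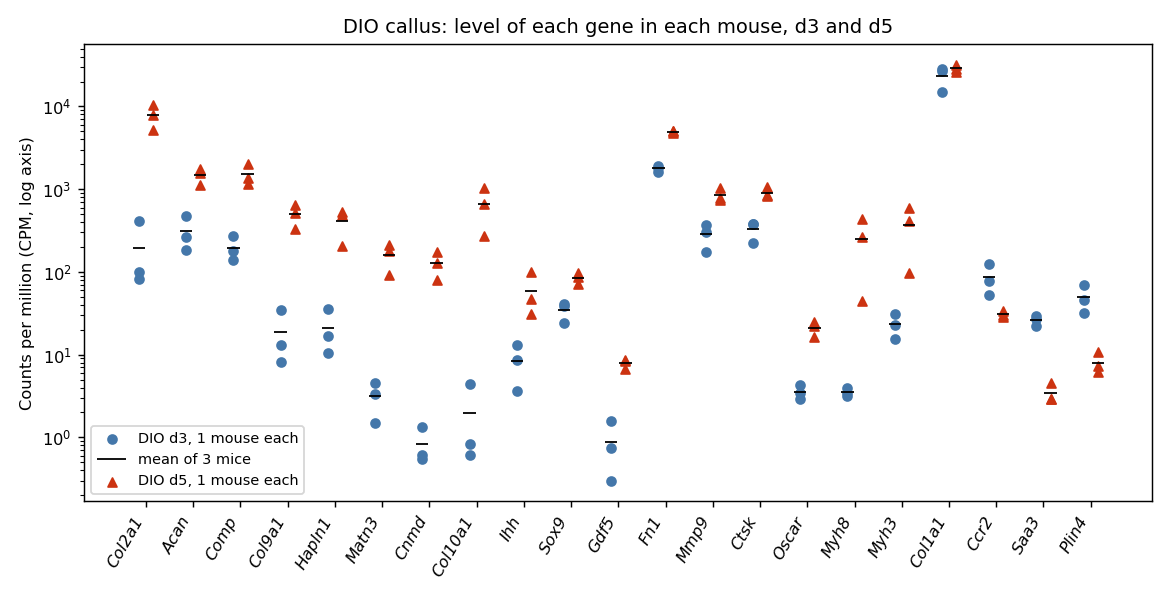
Level of 21 genes in each of the 6 mice, in CPM on a log axis. Blue circles are DIO d3 mice, red triangles DIO d5 mice and short bars the mean of 3 mice. The cartilage genes from Col2a1 to Gdf5 lie higher in every d5 mouse than in any d3 mouse, Col1a1 overlaps between the days, and Ccr2, Saa3 and Plin4 lie lower in every d5 mouse.

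Of 24 regulators of chondrocytes tested, 11 rose and 0 fell, their median change being 1.05 (log2). The number called was 5 without d3 mouse 1, 6 without d3 mouse 2 and 7 without d5 mouse 1. Sox9 and Sox5 are transcription factors that switch on the type II collagen gene. Sox9 was at 23.8, 41.3 and 38.9 CPM on d3 and at 86.6, 96.2 and 71.99 CPM on d5, with no overlap (log2 fold change 1.29 ± 0.30, adjusted p = 0.0353, at most 0.193). Its call was lost whichever mouse was left out. Sox5 went from 1.74, 2.25 and 2.97 CPM to 9.15, 7.82 and 6.65 CPM and kept its call in all 6 of those fits (log2 fold change 1.76 ± 0.29, adjusted p = 0.00358, at most 0.0333). Sox8, a relative of Sox9 that belonged to no list and was chosen after its values were seen, was at 1.92, 0.8200 and 1.69 CPM and 7.85, 8.597 and 7.66 CPM (log2 fold change 2.46 ± 0.31, adjusted p = 0.000614, at most 0.00564).

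Foxa2 and Foxa3 encode forkhead factors that act in hypertrophic chondrocytes. Foxa2 had no read in any d3 mouse and 56, 24 and 10 reads in the d5 mice (adjusted p at most 0.0348). It was thus at least 28.8-fold higher against a floor of 3 counts over the d3 group. With Foxa2 at that bound the median of the regulators stayed at 1.05. Foxa3 went from 0, 0.04100 and 0.363 CPM to 6.92, 5.07 and 3.15 CPM (log2 fold change 5.27 ± 0.82, adjusted p = 0.00232, at most 0.02599), a rise of 38.5-fold, or 162-fold without d3 mouse 3.

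Hedgehog signalling sets the pace of chondrocyte maturation. The ligand gene Ihh, chosen after its values were seen, was at 3.602, 8.53 and 13.1 CPM and then 98.7, 47.4 and 30.9 CPM, with d5 mouse 1 well above the others (log2 fold change 2.81 ± 0.67, adjusted p = 0.0379, at most 0.192). Without d5 mouse 1 the rise of Ihh went from 7.01-fold to 4.64-fold. Ptch1, both the receptor and a target of the pathway, rose from 21.9, 47.02 and 47.9 CPM to 122, 111 and 97.8 CPM (log2 fold change 1.5 ± 0.26, adjusted p = 0.00622, at most 0.0284). The growth factor Gdf5, which marks joint-forming and early cartilage cells, was at 0.3002, 0.738 and 1.57 CPM and 8.39, 6.63 and 8.67 CPM (log2 fold change 3.19 ± 0.46, adjusted p = 0.00152, at most 0.0172). The d5 mice were close to each other for Gdf5, and without d3 mouse 3 its rise went from 9.098-fold to 14.5-fold. The predicted gene Gm15557 has a nearly identical stretch that covers 40.5% of the longest Gdf5 transcript. The search did not separate a copy elsewhere from an overlap in position on either strand. Reads from there may have been split or dropped. Fgfr3, a receptor that slows the growth of chondrocytes, went from 56.3, 85.6 and 111 CPM to 231, 178 and 155 CPM (log2 fold change 1.16 ± 0.23, adjusted p = 0.01498, at most 0.0889), and Chrdl1, a BMP antagonist, from 8.77, 14.3 and 8.59 CPM to 23.9, 28.9 and 22.9 CPM (log2 fold change 1.25 ± 0.23, adjusted p = 0.00957, at most 0.0649). Trps1 and Wwp2, also chosen after their values were seen, rose by 0.96 and 1.14 on the log2 scale (adjusted p at most 0.0613 and 0.0988).

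Col10a1, which encodes the collagen of hypertrophic cartilage, showed the largest increase among the genes with at least 5 CPM on the higher day. It lies on chr10:34389981-34397085 and stood at 0.841, 0.615 and 4.42 CPM on d3 and at 1036, 657 and 271 CPM on d5. The rise was 344-fold (log2 fold change 8.43 ± 1.24, adjusted p = 0.00194, at most 0.0234), and the d5 mice ranged widely, from mouse 3 to mouse 1. Without d3 mouse 3, which had most of the d3 signal, it was 909-fold. It was the only called gene of 13 in the hypertrophy list, where the median log2 fold change was 0.34. Panx3, a channel protein of maturing chondrocytes and osteoblasts, was at 61, 166 and 195 CPM and 514, 312 and 302 CPM without passing the test (log2 fold change 1.42 ± 0.43, adjusted p = 0.121).

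Genes of osteoblasts and mineralization changed less. Of 35 tested, 5 rose and 0 fell, and the list median was 0.55 on the log2 scale, or 0.34 without d5 mouse 1. No more than 3 of them were called when any 1 mouse was left out, with 0 called without d3 mouse 1 and 0 without d5 mouse 1, 2 without d3 mouse 2, 2 without d3 mouse 3, 3 without d5 mouse 2 and 3 without d5 mouse 3. Phex, an endopeptidase of osteoblasts and osteocytes that keeps phosphate balance, was at 4.08, 16.5 and 13.4 CPM and then 72.9, 42.6 and 31.4 CPM (log2 fold change 2.11 ± 0.43, adjusted p = 0.0164, at most 0.0798). Enpp1, which makes the mineralization inhibitor pyrophosphate, went from 59.3, 53.7 and 76.4 CPM to 114, 89.9 and 113 CPM (log2 fold change 0.74 ± 0.17, adjusted p = 0.0288, at most 0.175). Mgp, another inhibitor of mineralization, was at 219.5, 228 and 281 CPM and 555, 503 and 526 CPM (log2 fold change 1.12 ± 0.26, adjusted p = 0.0349, at most 0.169). Sost, the osteocyte antagonist of WNT signalling, had 12.6, 9.18 and 7.14 CPM and 27.8, 26.4 and 21.3 CPM (log2 fold change 1.39 ± 0.33, adjusted p = 0.0376, at most 0.1395). Mgp and Sost lost their call whichever mouse was left out, and Enpp1 kept its call in 2 of the 6 fits. The fifth, Bglap, is almost identical in sequence to Bglap2 (99.8% of its longest transcript), so its reads cannot be assigned with certainty (log2 fold change 1.38 ± 0.32, adjusted p = 0.0313, at most 0.175).

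Several highly expressed or defining bone genes did not pass. Runx2, the master transcription factor of osteoblasts, was at 58.9, 106 and 90.1 CPM and 109, 101 and 104 CPM, overlapping between days (log2 fold change 0.30 ± 0.21, adjusted p = 0.588). Ibsp, a sialoprotein of mineralised matrix, had 1591, 4652 and 5011 CPM and 8342, 6117 and 6543 CPM, where d3 mouse 1 was far below the other d3 mice (log2 fold change 0.90 ± 0.39, adjusted p = 0.3098). Sparc, a collagen-binding protein of bone, had 6526, 10046 and 10083 CPM and 19289.9, 13199 and 15363 CPM (log2 fold change 0.85 ± 0.29, adjusted p = 0.176). Spp1, osteopontin, overlapped, at 2288, 1379 and 1042 CPM and 2258, 1454 and 1580.5 CPM, and the sign of its small change turned with the mouse left out (log2 fold change 0.17 ± 0.33, adjusted p = 0.879). Col1a1 also did not pass (log2 fold change 0.31 ± 0.34, adjusted p = 0.755), with d3 mouse 1 at the lowest level of the 6.

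In the fibrous and provisional matrix, 3 of 45 genes rose and 1 fell, and 41 of the 45 were higher on d5 by their mean, by 0.54 (log2) in the median gene. Without d3 mouse 1 none of the 45 was called in either direction, and the call of the gene that fell was lost whichever mouse was left out. Without d3 mouse 3 and without d5 mouse 2 there was 1 higher call each. Taking the spread from the 6 libraries alone gave 15 higher genes. Fn1, which encodes fibronectin, the scaffold on which other matrix proteins assemble, was at 1609, 1911 and 1812 CPM on d3 and at 5001, 5039.5 and 4799.5 CPM on d5. Mice of the same day agreed closely, and the rise was 2.78-fold (log2 fold change 1.48 ± 0.26, adjusted p = 0.00678, at most 0.0505). Fbn2, a fibrillin of developing tissue, went from 22.8, 34.03 and 22.6 CPM to 58.5, 113 and 90.3 CPM (log2 fold change 1.72 ± 0.34, adjusted p = 0.0119, at most 0.0781). Mfap2, a protein of the same microfibrils, went from 42.6, 45.02 and 42.00 CPM to 98.8, 95.8 and 92.9 CPM (log2 fold change 1.15 ± 0.26, adjusted p = 0.0313, at most 0.131). Has1, a hyaluronan synthase, was the gene that fell, from 4.38, 5.94 and 6.54 CPM to 1.78, 2.75 and 2.53 CPM (log2 fold change -1.26 ± 0.30, adjusted p = 0.0376, at most 0.162).

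Enzymes that modify collagen gave 4 rises among 26 genes and no fall, but 0 calls were left without d3 mouse 1, 0 without d3 mouse 2, 0 without d5 mouse 1 and 1 without d5 mouse 2. Plod2, the lysyl hydroxylase of collagen telopeptides, was at 112, 133 and 167 CPM and 301, 281 and 243 CPM (log2 fold change 1.00 ± 0.22, adjusted p = 0.0222, at most 0.149). P3h2, a prolyl hydroxylase, went from 21.2, 23.9 and 36.5 CPM to 66.7, 57.7 and 48.3 CPM (log2 fold change 1.08 ± 0.21, adjusted p = 0.0119, at most 0.08899). Loxl4, a lysyl oxidase that cross-links matrix proteins, and Pcolce2, an enhancer of procollagen cleavage, moved by 1.79 and 1.71 on the log2 scale (adjusted p at most 0.181 and 0.103). Among 38 matrix proteases and inhibitors 3 rose, with 1 left without d3 mouse 1. Adamts3, which trims the ends of procollagen, was at 12.5, 16.6 and 16.2 CPM and 57.5, 44.2 and 41.01 CPM and kept its call in all fits with a mouse left out (log2 fold change 1.66 ± 0.23, adjusted p = 0.00119, at most 0.0163). Mmp9, a gelatinase of osteoclasts and neutrophils, was at 174, 372 and 305 CPM and 1039.9, 737 and 782 CPM (log2 fold change 1.59 ± 0.29, adjusted p = 0.00819, at most 0.0527), and the third gene was Adamts16 (log2 fold change 2.61 ± 0.58, adjusted p = 0.0258, at most 0.142).

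Growth factor genes of the FGF and IGF families gave 6 rises and no fall among 24. Only 2 were called in each of the fits without d3 mouse 1, without d3 mouse 2, without d3 mouse 3 and without d5 mouse 2. Igf1, a growth factor for chondrocytes and muscle, was at 113, 69.2 and 59.5 CPM and 175, 219.8 and 172 CPM, with d3 mouse 1 highest on its day (log2 fold change 1.23 ± 0.26, adjusted p = 0.0187, at most 0.106). Igf2, its fetal counterpart, ran from 37.1, 112 and 25.7 CPM to 128, 538 and 404 CPM. The value of d5 mouse 1 was close to that of d3 mouse 2, far below the other two d5 mice (log2 fold change 2.61 ± 0.59, adjusted p = 0.0275, at most 0.152). Without d3 mouse 2 the rise of Igf2 went from 6.11-fold to 11.4-fold. The gene Gm49394 shares 76.2% of the longest Igf2 transcript, so the count of Igf2 is uncertain. Fgfrl1, a decoy-like FGF receptor found in cartilage, was at 41.8, 50.6 and 57.9 CPM and 123, 202 and 118 CPM (log2 fold change 1.56 ± 0.24, adjusted p = 0.00229, at most 0.02403). Igfbp4, a binding protein that restrains IGFs, was at 511, 550.2 and 451 CPM and 950.3, 952 and 933 CPM (log2 fold change 0.91 ± 0.19, adjusted p = 0.0164, at most 0.0793). With Fgfr3, described above, and Igfbp2, another IGF binding protein, chosen after its values were seen (log2 fold change 1.79 ± 0.40, adjusted p = 0.0281, at most 0.158), these make up the 6. Mdk, the growth factor midkine, lay outside the lists and was chosen after its values were seen, at 18.1, 33.2 and 21.6 CPM and 75.5, 93.97 and 87.4 CPM (log2 fold change 1.81 ± 0.22, adjusted p = 0.000526, at most 0.00514). In the WNT family and its antagonists 2 of 31 rose, Sost and Wnt11 (log2 fold change 1.61 ± 0.31, adjusted p = 0.0105, at most 0.0613), and both calls were lost without d3 mouse 1 and without d3 mouse 2, while 1 call was left in each fit without a d5 mouse. Frzb and Wif1, secreted WNT antagonists of cartilage, were at 20.8, 48.9 and 52.8 and 7.99, 20.9 and 29.96 CPM on d3 and at 112, 113 and 80.8 and 78.2, 36.4 and 33.5 CPM on d5 (adjusted p = 0.0712 and 0.0778), without passing. In the BMP, GDF and TGF-beta family 2 of 38 rose, Gdf5 and Chrdl1, with 1 left without d3 mouse 1.

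Imprinted growth genes, which are expressed from 1 parental copy and are active in fetal and regenerating tissue, gave 8 rises and no fall among 19 tested, and a median change of 0.93 on the log2 scale. The count was 4 without d3 mouse 1 and 5 without d5 mouse 2. Peg3, a zinc finger protein on chr7:6703892-6730431, was at 87.2, 95.4 and 98.04 CPM and 297, 451 and 278 CPM (log2 fold change 1.87 ± 0.24, adjusted p = 0.000636, at most 0.00867). Mest, an enzyme of the hydrolase fold, was at 141, 218 and 160.2 CPM and 505, 1003 and 705 CPM (log2 fold change 2.09 ± 0.33, adjusted p = 0.00259, at most 0.0284). Cdkn1c, an inhibitor of the cell cycle that also acts in chondrocyte maturation, was at 33.4, 19.97 and 17.3 CPM and 78.9, 135 and 98.5 CPM (log2 fold change 2.15 ± 0.36, adjusted p = 0.00497, at most 0.0356). In each of these 3 genes the days were well apart, and d5 mouse 2 was the highest. Grb10, an adaptor that dampens insulin and IGF signalling, rose less (log2 fold change 1.05 ± 0.19, adjusted p = 0.00839, at most 0.0636). Magel2 had 1 read in the 3 d3 mice together and 112, 88 and 16 reads in the d5 mice (adjusted p at most 0.0497). Plagl1, Sgce and Zim1, chosen after their values were seen, rose by 1.98, 0.56 and 4.44 on the log2 scale (adjusted p at most 0.0636, 0.152 and 0.00787). The call of Sgce was lost whichever mouse was left out. Zim1, a neighbour of Peg3, belonged to no list. H19, the untranslated RNA beside Igf2, was at 573, 1076 and 571 CPM and 1280.1, 3283 and 2209 CPM without passing (log2 fold change 1.61 ± 0.72, adjusted p = 0.329).

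Of 22 genes of osteoclasts and resorption 6 rose and none fell, and the median member changed by 0.36 on the log2 scale, by 0.14 without d5 mouse 1 and by 0.56 without d5 mouse 2. The count fell to 1 without d3 mouse 1 and to 3 without d5 mouse 1. Oscar, a receptor that co-stimulates osteoclast formation and lies on chr7:3609813-3616157, had the smallest adjusted p of all genes tested. Its values were 2.88, 4.35 and 3.45 CPM on d3 and 24.8, 16.3 and 22.02 CPM on d5, a rise of 5.87-fold (log2 fold change 2.55 ± 0.22, adjusted p = 2.98e-05, at most 0.000864). Acp5, the tartrate-resistant acid phosphatase, was at 171, 286 and 250.1 CPM and 905, 560.5 and 631 CPM (log2 fold change 1.57 ± 0.30, adjusted p = 0.0105, at most 0.0781). Ctsk, the collagen-degrading cathepsin K, was at 225, 375 and 384 CPM and 1048, 848 and 823 CPM (log2 fold change 1.47 ± 0.29, adjusted p = 0.01295, at most 0.0901). The highest d3 mouse was below the lowest d5 mouse for all 3. Dcstamp, which is needed for precursors to fuse, was at 3.78, 6.76 and 6.35 CPM and 21.95, 13.02 and 16.95 CPM (log2 fold change 1.61 ± 0.32, adjusted p = 0.0132, at most 0.0922). Atp6v0d2, a subunit of the acid pump, was at 20.1, 36.6 and 28.99 CPM and 67.2, 70.5 and 66.1 CPM (log2 fold change 1.25 ± 0.24, adjusted p = 0.00999, at most 0.0679). Rab38, a small GTPase of vesicle transport chosen after its values were seen, was the sixth (log2 fold change 1.12 ± 0.25, adjusted p = 0.02596, at most 0.157). Scin, an actin-severing protein found in osteoclasts and elsewhere, had the second smallest adjusted p of all genes and was also chosen after its values were seen, at 3.06, 4.76 and 4.24 CPM and 31.4, 31.8 and 17.7 CPM (log2 fold change 2.74 ± 0.26, adjusted p = 5.82e-05, at most 0.001297).

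Of 23 genes of muscle regeneration 6 rose and none fell, with 1.75 (log2) as the list median. Of 35 genes of adult muscle none was called, with a median of -0.64, which was -0.35 without d3 mouse 1 and -0.41 without d5 mouse 1. The regeneration count was 2 without d3 mouse 2 and 3 without d3 mouse 1, without d3 mouse 3 and without d5 mouse 2. Myh8, the perinatal myosin heavy chain, was at 3.42, 3.198 and 3.99 CPM on d3 and at 44.2, 439 and 262 CPM on d5 (log2 fold change 6.14 ± 1.00, adjusted p = 0.00358, at most 0.0333). Myh3, the embryonic myosin heavy chain, was at 31.04, 22.9 and 15.5 CPM and 97.7, 589 and 414 CPM (log2 fold change 3.99 ± 0.84, adjusted p = 0.0183, at most 0.0976). For both genes d5 mouse 1 was the lowest of its day by far and yet above all d3 mice. The rise of Myh8 went from 70.4-fold to 43.4-fold without d5 mouse 2. Mymk, which fuses myoblasts, was at 9.25, 6.07 and 4.36 CPM and 22.6, 77.9 and 63.7 CPM (log2 fold change 3.06 ± 0.63, adjusted p = 0.0164, at most 0.08804). Myl4 and Tnnt2, the embryonic light chain and the embryonic form of troponin T, rose by 2.82 and 2.41 on the log2 scale, and Ncam1, a cell adhesion molecule, by 0.89. The adjusted p of Myl4, Tnnt2 and Ncam1 was at most 0.0533, 0.105 and 0.0626.

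The adult muscle list had 3 genes higher and 3 lower at an unadjusted p under 0.05, and DESeq2 on the 18 libraries called none of it. On the 6 libraries of d3 and d5 alone edgeR called 1 higher and 4 lower and DESeq2 1 higher and 12 lower. Tnni1, the slow troponin I that embryonic muscle also uses, was the highest of them, at 29.8, 12.7 and 35.2 CPM and 63.3, 256 and 229.9 CPM (log2 fold change 2.82 ± 0.83, adjusted p = 0.106). Ckm, the creatine kinase of muscle, had 3296, 1801 and 2423 CPM and 816, 1451 and 1148 CPM (log2 fold change -1.14 ± 0.82, adjusted p = 0.595). Acta1, skeletal actin, had 7417, 4020.1 and 6544 CPM and 2548, 5126 and 3893 CPM, which overlap (log2 fold change -0.64 ± 0.81, adjusted p = 0.794). The largest decreases by the naming rule included muscle genes that the list did not hold. Asb11, a ubiquitin ligase subunit of muscle, was at 22.5, 16.4 and 23.1 CPM and 3.08, 1.91 and 2.53 CPM (log2 fold change -3.03 ± 0.73, adjusted p = 0.0411, at most 0.182). Dusp26 (log2 fold change -2.70 ± 0.57, adjusted p = 0.01995, at most 0.109), Tuba8 (log2 fold change -1.96 ± 0.49, adjusted p = 0.0498, at most 0.183) and Ankrd2 (log2 fold change -1.70 ± 0.42, adjusted p = 0.0486, at most 0.211) are enriched in muscle too. Without d5 mouse 1 the fall of Ankrd2 went from 3.26-fold to 5.63-fold. Fbxo32, the atrophy ubiquitin ligase, was chosen after its values were seen and fell from 116, 71.3 and 89.6 CPM to 32.98, 42.7 and 31.2 CPM (log2 fold change -1.37 ± 0.26, adjusted p = 0.0106, at most 0.0657). The summed level of adult muscle genes given above was also lower on d5 in its range, and its part in these falls was not tested.

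**Figure D3:**
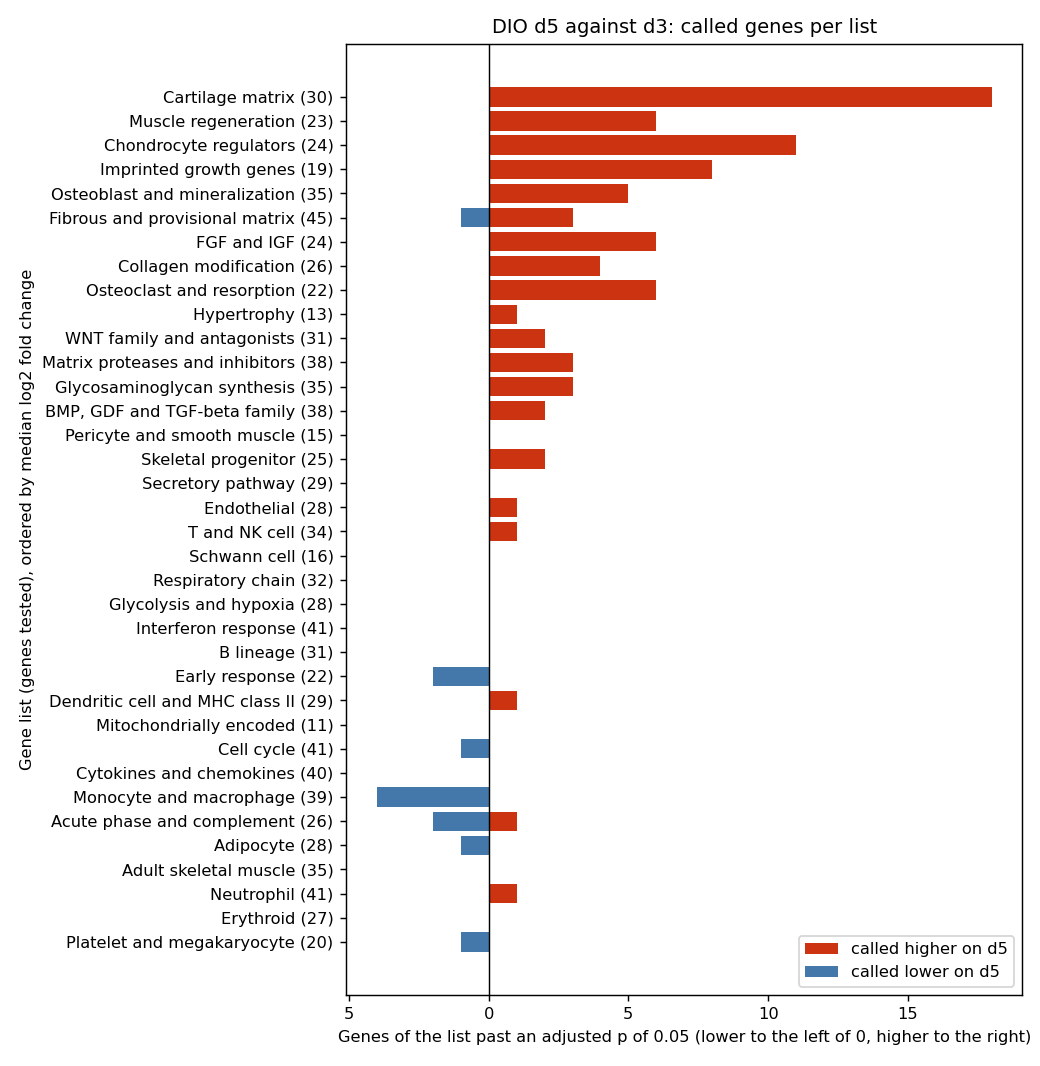
Number of called genes in each of 36 lists, with genes higher on d5 to the right of 0 and genes lower on d5 to the left. The number of genes tested stands after each name, and the lists are ordered by median log2 fold change. Cartilage matrix has 18 called genes and chondrocyte regulators 11, while the lists at the lower end have at most 4 lower genes each.

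Inflammatory genes tended to lower means with few calls in the fit of 18 libraries. Of 39 genes of monocytes and macrophages 4 fell and none rose, and 33 were lower by their mean, the list median being -0.53 on the log2 scale, or -0.16 without d3 mouse 1. The calls numbered 1 without d3 mouse 1, 1 without d5 mouse 1 and 2 without d5 mouse 2. At an unadjusted p under 0.05, 12 of the 39 were lower and 0 higher, and DESeq2 called 5 lower. On the 6 libraries alone edgeR called 7 lower and DESeq2 10. The summed level of the list was 11128 CPM in d3 mouse 1, 6613 and 4936 CPM in the other two d3 mice, and 5412 to 6441 CPM on d5, so that it overlapped. Ccr2, the chemokine receptor that brings monocytes into tissue, was at 126, 78.1 and 52.7 CPM on d3 and at 30.1, 28.7 and 33.6 CPM on d5 (log2 fold change -1.47 ± 0.29, adjusted p = 0.0131, at most 0.0918). Pf4, a chemokine of platelets and of some macrophages, was at 174, 159.7 and 147 CPM and 56.9, 54.4 and 61.4 CPM and kept its call in all fits with a mouse left out (log2 fold change -1.47 ± 0.26, adjusted p = 0.00572, at most 0.0339). Msr1, a scavenger receptor, was at 83.3, 57.9 and 46.8 CPM and 27.3, 30.4 and 29.9 CPM (log2 fold change -1.10 ± 0.21, adjusted p = 0.0119, at most 0.0897). Fcgr1, the high-affinity IgG receptor, was at 82.9, 37.5 and 38.5 CPM and 18.4, 28.5 and 25.9 CPM (log2 fold change -1.13 ± 0.26, adjusted p = 0.0356, at most 0.243).

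General markers of the same cells overlapped between days. Adgre1, which encodes F4/80, was at 113, 77.03 and 45.6 CPM and 44.1, 64.1 and 65.4 CPM (log2 fold change -0.44 ± 0.24, adjusted p = 0.441). Ptprc, the common leukocyte antigen CD45, was at 129.8, 104 and 65.7 CPM and 71.7, 76.5 and 71.7 CPM (log2 fold change -0.45 ± 0.25, adjusted p = 0.467). Arg1, the arginase of alternatively activated macrophages, was lower in every d5 mouse, at 145, 91.3 and 99.8 CPM and 21.5, 25.7 and 63.9 CPM, without passing the test (log2 fold change -1.59 ± 0.77, adjusted p = 0.372).

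Further called decreases are given here with the acute phase list. Saa3, an acute phase apolipoprotein made in inflamed tissue, was at 27.02, 29.3 and 21.9 CPM and 4.55, 2.93 and 2.93 CPM, a fall of 7.47-fold that held whichever mouse was left out (log2 fold change -2.90 ± 0.49, adjusted p = 0.00463, at most 0.0308). Gpr132, a lipid and proton receptor of leukocytes, was at 34.7, 23.9 and 24.9 CPM and 10.8, 7.88 and 9.86 CPM (log2 fold change -1.55 ± 0.24, adjusted p = 0.00232, at most 0.0234). Dok2, an adaptor of blood cells, was at 47.9, 34.5 and 26.4 CPM and 11.9, 9.91 and 10.4 CPM (log2 fold change -1.75 ± 0.37, adjusted p = 0.0181, at most 0.103). In all 3 the days were clearly apart. Gpr84, a receptor for medium-chain fatty acids on activated myeloid cells, fell by 1.59 on the log2 scale (adjusted p = 0.0238, at most 0.138). Lsr, a lipoprotein receptor of epithelia and liver, was at 15.4, 7.67 and 6.96 CPM and 3.53, 2.99 and 2.76 CPM and fell too (log2 fold change -1.69 ± 0.33, adjusted p = 0.0117, at most 0.0916). Btk, Nckap1l and Slfn2, which act in blood cells and were chosen after their values were seen, fell by 0.84, 0.69 and 0.96 (adjusted p at most 0.138, 0.131 and 0.235). Of 26 acute phase and complement genes 2 fell, Saa3 and Cfp, which encodes the complement protein properdin (log2 fold change -0.88 ± 0.19, adjusted p = 0.0205, at most 0.149), and 1 rose, Lbp, the lipopolysaccharide binding protein (log2 fold change 1.12 ± 0.20, adjusted p = 0.007300, at most 0.05096). Without d3 mouse 1, d3 mouse 2, d5 mouse 1 or d5 mouse 2 there was 1 lower call, and without d3 mouse 2 no higher call.

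Neutrophil genes were lower on d5 by their mean in 37 of 41 cases, and the median of the list was -0.65 on the log2 scale, -1.41 without d5 mouse 1 and -0.39 without d5 mouse 3. The only call was Mmp9, which rose and which osteoclasts also make, and it was lost without d3 mouse 1. At an unadjusted p under 0.05, 8 of the 41 were lower, and DESeq2 called none lower. On the 6 libraries alone edgeR called 2 lower and DESeq2 6. Ly6g, the surface marker of mouse neutrophils, was at 7.81, 12.6 and 8.29 CPM and 13.7, 4.896 and 2.53 CPM (log2 fold change -0.43 ± 0.67, adjusted p = 0.8401). S100a9, an abundant calcium-binding protein of neutrophils, was at 771, 1133 and 1139 CPM and 1296, 443 and 313 CPM (log2 fold change -0.57 ± 0.57, adjusted p = 0.725). For both genes d5 mouse 1 was the highest of all 6 mice and the other two d5 mice were the lowest, so the days overlapped.

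None of 40 cytokine and chemokine genes was called by edgeR. At an unadjusted p under 0.05, 5 were higher and 4 lower, DESeq2 called 1 lower, and 1 lower call appeared without d3 mouse 3. On the 6 libraries alone edgeR called 4 lower, and DESeq2 called 7 lower and 1 higher. Il1b, the inflammatory cytokine, was at 54.5, 69.04 and 31.2 CPM and 15.6, 14.4 and 26.8 CPM, lower in every d5 mouse but not past the test (log2 fold change -1.45 ± 0.52, adjusted p = 0.198). Tnf was at 5.704, 3.48 and 4.54 CPM and 3.08, 3.28 and 1.802 CPM (log2 fold change -0.74 ± 0.76, adjusted p = 0.731). Cxcl16 overlapped, at 103, 74.7 and 69.7 CPM and 73.7, 76.6 and 79.4 CPM. Ccl5, the T cell chemokine, had 2.04, 1.68 and 1.33 CPM and 2.14, 3.82 and 2.704 CPM (log2 fold change 0.77 ± 0.34, adjusted p = 0.316). Ifng had no read in any of the 6 libraries. None of 41 interferon response genes was called, with 1 higher and 4 lower at an unadjusted p under 0.05, 1 lower in DESeq2 and, on the 6 libraries alone, none in edgeR and 1 lower in DESeq2. Their median log2 fold change of -0.27 turned to 0.07 without d3 mouse 1, and was -0.44 without d3 mouse 2, -0.17 without d5 mouse 1 and -0.43 without d5 mouse 2.

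Among 29 genes of dendritic cells and MHC class II the only call was Batf3, a transcription factor of cross-presenting dendritic cells, which rose from 2.16, 1.93 and 3.27 CPM to 10.1, 5.19 and 7.72 CPM (log2 fold change 1.66 ± 0.36, adjusted p = 0.0209, at most 0.126). H2-Ab1 was at 199.7, 170.4 and 107 CPM and 105, 112 and 119 CPM (log2 fold change -0.51 ± 0.26, adjusted p = 0.408), and Itgax, which encodes CD11c, at 26.4, 24.3 and 15.7 CPM and 14.01, 13.5 and 14.4 CPM (log2 fold change -0.66 ± 0.27, adjusted p = 0.269). Both had lower means on d5 while Batf3 had a higher one. Among 34 T and NK cell genes the only call was Cd4, which myeloid cells can also express, at 2.64, 4.67 and 3.51 CPM and 8.92, 9.73 and 9.24 CPM (log2 fold change 1.35 ± 0.31, adjusted p = 0.0288, at most 0.158). The T cell receptor component Cd3e did not exceed 0.451 CPM in any of the 6 mice. The call of Batf3 was lost in all but the fits without d3 mouse 3 and without d5 mouse 2, and that of Cd4 in all but the fit without d3 mouse 2. Single lower calls appeared without d3 mouse 3 in the first list and without d5 mouse 1 in the second. None of 31 B lineage genes was called, with 3 higher at an unadjusted p under 0.05 and none in DESeq2, which on the 6 libraries alone called 1 lower.

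Of 28 adipocyte genes 24 were lower on d5 by their mean and 1 fall was called (list median -0.63, log2, or -0.40 without d3 mouse 1). Plin4, a coat protein of lipid droplets in fat and muscle, was at 69.3, 31.7 and 46.00 CPM and 7.27, 6.09 and 10.6 CPM, a fall of 6.11-fold that held in all fits with a mouse left out (log2 fold change -2.61 ± 0.39, adjusted p = 0.00208, at most 0.0163). DESeq2 called 5 genes of this list lower, and 2 were called without d3 mouse 2 and without d3 mouse 3. Adipoq, which encodes adiponectin and defines fat cells, was low on both days, at 4.44, 3.61 and 2.54 CPM and 1.96, 1.31 and 2.53 CPM (log2 fold change -0.86 ± 0.42, adjusted p = 0.383). Cidec, another droplet protein, was at 8.53, 0.492 and 1.33 CPM and 0.0446, 0.179 and 0.451 CPM (log2 fold change -3.93 ± 1.01, adjusted p = 0.0581). Most of the d3 signal for Cidec came from d3 mouse 1.

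The mean of each of the 41 cell cycle genes was lower on d5, the median change being -0.42 (log2), and 1 was called. Their summed level was between 2504 and 3219 CPM on d3 and between 1886 and 2232 CPM on d5. Foxm1, a transcription factor of dividing cells, was at 65.3, 88.1 and 78.1 CPM and 48.2, 48.2 and 53.4 CPM (log2 fold change -0.63 ± 0.15, adjusted p = 0.0408, at most 0.203), and its call was lost in 5 of the 6 fits with a mouse left out. Mki67, the proliferation antigen, was at 222, 294 and 265 CPM and 173, 179 and 174 CPM (log2 fold change -0.57 ± 0.26, adjusted p = 0.329). At an unadjusted p under 0.05, 17 of the 41 were lower, and DESeq2 called 4. The count was 11 when the spread came from the 6 libraries of d3 and d5, and 20 in DESeq2 on those 6.

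Early response genes also had lower means, in 21 of 22, with 2 calls. Junb, a subunit of the AP-1 factor, was at 194, 179 and 168 CPM and 90.9, 96.8 and 129 CPM (log2 fold change -0.77 ± 0.18, adjusted p = 0.0323, at most 0.166). Zfp36, which destabilises cytokine mRNAs, was at 98.7, 86.3 and 62.1 CPM and 49.4, 42.9 and 54.1 CPM (log2 fold change -0.75 ± 0.17, adjusted p = 0.0282, at most 0.1700). No call was left without d3 mouse 1, d3 mouse 2, d5 mouse 1 or d5 mouse 2, and 1 was left without d3 mouse 3. Fos overlapped between days, at 85.4, 89.5 and 55.6 CPM and 32.2, 28.9 and 57.4 CPM (log2 fold change -0.96 ± 0.35, adjusted p = 0.201). Cebpd, an inflammatory transcription factor chosen after its values were seen, was at 61.7, 57.6 and 42.8 CPM and 28.4, 21.1 and 35.3 CPM (log2 fold change -0.93 ± 0.21, adjusted p = 0.02502, at most 0.148).

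The platelet list had 18 of 20 genes with a lower mean, a median of -1.59 and 1 call, Pf4, with 16 lower at an unadjusted p under 0.05 3 in DESeq2 and 2 without d5 mouse 1. The erythroid list had 25 of 27 with a lower mean and no call, with 3 lower at an unadjusted p under 0.05 and none in DESeq2. On the 6 libraries alone edgeR called 4 erythroid genes lower, and DESeq2 called 8 lower and 1 higher. Endothelial genes had a median of 0.03, between -0.06 and 0.12 with 1 mouse left out, and 1 call, the transcription factor Erg, at 18.9, 15.7 and 18.7 CPM and 29.4, 36.2 and 29.9 CPM (log2 fold change 0.84 ± 0.17, adjusted p = 0.0137, at most 0.0912), lost without d3 mouse 1, d3 mouse 2 or d5 mouse 2. In the endothelial list 3 genes were higher and 3 lower at an unadjusted p under 0.05, and DESeq2 called 1 higher and 2 lower. On the 6 libraries alone edgeR and DESeq2 each called 2 higher and 2 lower. Pecam1, the general marker of the vessel wall, was at 194, 138 and 171 CPM and 171, 179 and 174 CPM. Of 25 skeletal progenitor genes 2 rose, Nt5e (log2 fold change 1.25 ± 0.26, adjusted p = 0.0189, at most 0.127) and Foxc1 (log2 fold change 0.95 ± 0.21, adjusted p = 0.0232, at most 0.148), and both calls were lost without d3 mouse 1 and without d5 mouse 1, with 1 left without d3 mouse 2, d3 mouse 3 or d5 mouse 2. No call was made among the lists of pericytes and smooth muscle (15 genes), Schwann cells (16), glycolysis and hypoxia (28), the respiratory chain (32), the secretory pathway (29) and mitochondrially encoded genes (11). At an unadjusted p under 0.05 these held 7 higher and 4 lower genes together, and DESeq2 called 2 higher and 2 lower. On the 6 libraries alone edgeR called 1 higher and 3 lower and DESeq2 6 higher and 10 lower, and 1 Schwann cell gene was called higher without d5 mouse 1 and without d3 mouse 2.

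The other DIO days show where d3 and d5 lie within the course of healing, as a description without a test. Col2a1 had a mean of 196 ± 184 CPM on d3, 7776 ± 2631 on d5, 19448 ± 8928 on d7, 2401 ± 1454 on d10 and 307 ± 260.0 on d14 (SD, n = 3 each). Col10a1 followed with 655 ± 382 on d5, 2931 ± 2385 on d7 and 1394 ± 471 on d10. Gdf5 and Fn1 were likewise highest on d7, at 22.3 ± 7.03 and 8941 ± 1822 CPM. The osteoclast gene Oscar dropped from 21.04 ± 4.34 CPM on d5 to 10.6 ± 1.44 on d7 and stood at 98.5 ± 22.3 on d14. The perinatal myosin Myh8 had its highest mean on d5, with 83.1 ± 42.1 CPM on d7 and 6.23 ± 2.04 on d10. Ccr2 remained at 40.2 ± 1.91 CPM on d7 and 33.9 ± 5.84 on d10 and was at 80.5 ± 17.4 on d14. Plin4 was lowest on d5 and stood at 72.1 ± 25.3 CPM on d21.

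**Figure D4:**
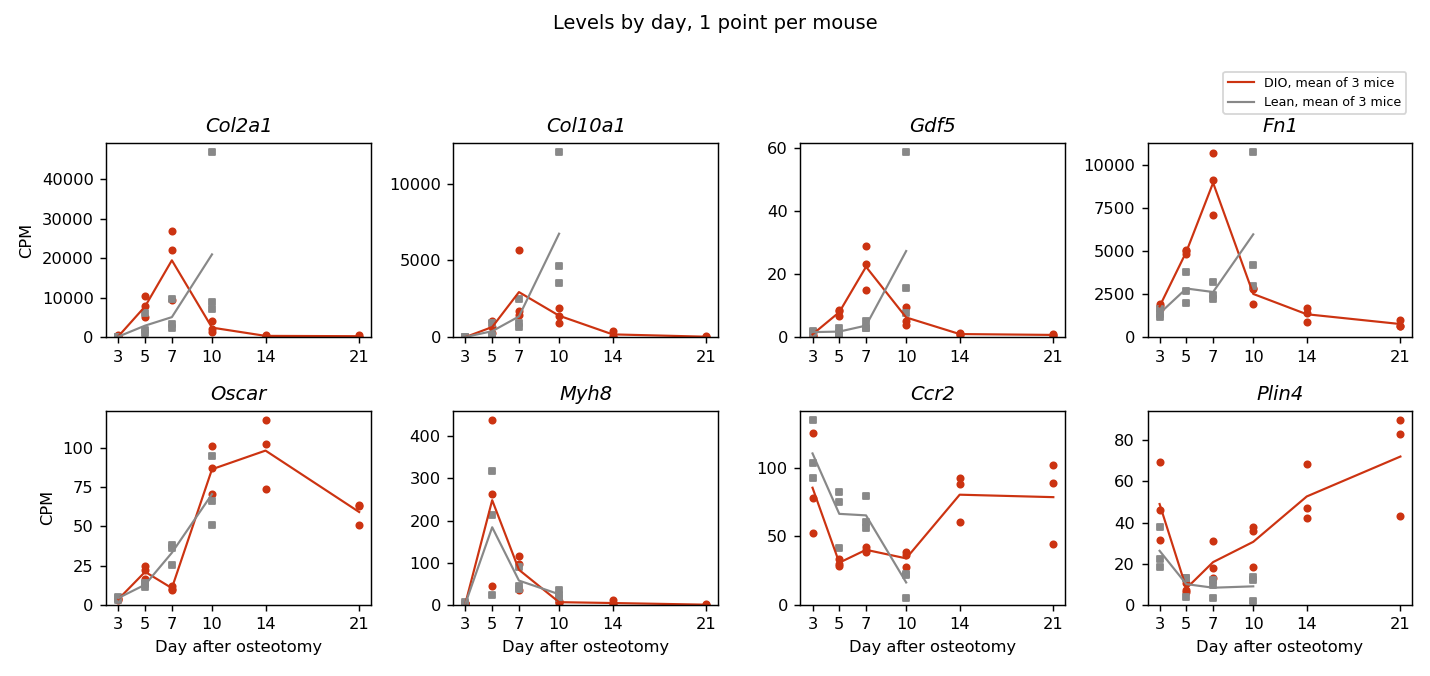
Level in CPM (linear axes from 0) of 8 genes against the day after osteotomy. Red circles are DIO mice on 6 days and grey squares lean mice on 4 days, 1 point per mouse, and lines join the means of 3 mice. From d3 to d5 the 4 genes of the upper row and Oscar and Myh8 go up in DIO mice and Ccr2 and Plin4 go down.

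The last question is whether the change from d3 to d5 in DIO callus differed from that in lean callus. In 1 fit of the 12 libraries of both days and diets, 0 of 16361 genes (0%) passed an adjusted p of 0.05 for the difference of the changes in edgeR. At an unadjusted p under 0.05 there were 1270 such genes, where 818 would be expected if no gene differed. DESeq2 called 26. The smallest adjusted p was 0.228, shared by Gpr132, Fosb and Per1. Gpr132 had lean values of 19.2, 27.4 and 19.8 CPM on d3 and 32.6, 27.8 and 21.5 CPM on d5, so that its mean was not lower on d5 there, and its difference was -1.85 ± 0.30. Fosb, an early response gene, had 5.104, 6.48 and 3.57 CPM and 3.21, 2.69 and 3.15 CPM in DIO mice against 4.68, 4.696 and 3.699 CPM and 14.9, 27.4 and 12.99 CPM in lean mice, a difference of -2.82 ± 0.42. Per1, a gene of the circadian clock, had 39.3, 51.9 and 40.6 CPM and 29.9, 27.1 and 30.2 CPM against 25.98, 38.8 and 33.2 CPM and 60.7, 58.8 and 50.4 CPM, a difference of -1.39 ± 0.22. These differences are the log2 change in DIO minus that in lean, with their standard error. The next 3 genes, at an adjusted p of 0.469, were Tesk1, Nfkb2 and the unnamed gene ENSMUSG00000097830.

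Of the 282 genes called in DIO mice that could be fitted in both diets, 278 moved in the same direction in lean mice. The 234 that rose had a median log2 fold change of 1.67 in DIO and 1.19 in lean in that fit, and the 48 that fell had -1.25 and -0.54. These genes were chosen for their change in DIO mice, so the larger change in DIO for 240 of the 282 is a description and no test of the diets. For the 30 cartilage matrix genes the medians were 2.71 in DIO and 2.78 in lean, over the 28 that could be fitted in both. Gene by gene, most of the 28 still had the higher log2 change in DIO. Col2a1 had 5.30 in DIO and 4.46 in lean, and Cnmd 7.28 and 4.94. Matn4, with 2.13 and 2.75, was among those that went the other way. Gdf5 and Scrg1 changed little in lean mice, with log2 changes of 3.18 in DIO and 0.16 in lean for Gdf5 and of 3.50 and 0.59 for Scrg1. The adjusted p of the difference was 0.469 for Gdf5 and 0.492 for Scrg1. Gaps of like size were found in other cartilage genes, such as Ucma, with 7.05 in DIO and 3.63 in lean, and Matn1, with 7.34 and 4.31. Chadl had the lower change in DIO, with 2.51 and 2.85. Among the lists whose medians had opposite signs were the interferon response, with -0.27 in DIO and 0.44 in lean, adult muscle, with -0.64 and 0.20, and dendritic cells and MHC class II, with -0.39 and 0.12. In the fit of DIO mice alone the interferon median was 0.07, and so of the same sign as in lean mice, without d3 mouse 1. The dendritic cell median was -0.38 there, -0.23 without d3 mouse 1 and -0.61 without d3 mouse 3. None of their genes passed the test of the difference.

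**Figure D5:**
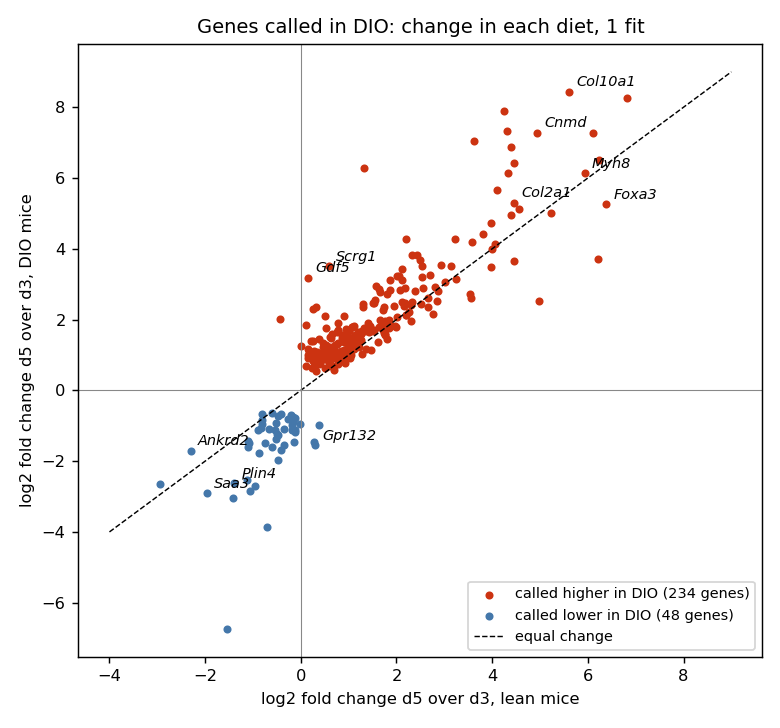
Log2 fold change of d5 over d3 in lean mice (horizontal) and in DIO mice (vertical) from 1 fit of 12 libraries, for the 234 genes called higher (red) and the 48 called lower (blue) in DIO mice. The dashed line marks equal change. Most points lie in the upper right and lower left quadrants, and Gdf5, Scrg1 and Gpr132 lie near or past 0 in lean mice.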

How the data were processed

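Fracture callus of 30 mice was sequenced after poly(A) selection with a stranded kit. Per the labels and the study's methods, the authors aligned reads with HISAT2 2.1.0 to GRCm38 and counted them per gene with HTSeq. The version of HTSeq, whether it used strand, and its annotation are not given in the sources used here. The deposited table holds raw read counts for 43629 genes, with no normalization, of which 42548 identifiers were found in GENCODE M21 for symbols and positions.

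Library totals were computed from those counts, and CPM used TMM factors over all 30 libraries. The days were compared with edgeR 4.0.16 (R 4.3.3, limma 3.58.1) by its quasi-likelihood F-test on the 18 DIO libraries, after edgeR's default expression filter, with Benjamini-Hochberg adjustment and a threshold of 0.05. The comparison of diets used 12 libraries. Levels and intervals rest on 3 mice per group, each a separate callus. Counts of 2 mice of a day differed by 12.8 to 49.8 times the sampling noise (chi-square per degree of freedom), so no library repeats another of its day. Libraries of different days were not compared in this way. Alternatives were other scaling factors, other filters, DESeq2 1.42.0, other sets of libraries, a replicate block, a minimum fold and leaving out each mouse.

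The gene lists, and the members and tests, were chosen with earlier results of these data known. Genes named in the text were the 12 largest called increases and the 12 largest called decreases without overlap and with a mean of at least 5 CPM on the higher day, up to 5 genes per list with the smallest adjusted p, list members of at least 1000 CPM, the 6 smallest p of the comparison of diets, and 24 set genes, of which 1 is not reported here. For every other gene the text says that it was picked with its values in view.

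The fits were tested on simulated data: with 200 of 16995 genes changed, the comparison of days found 159 and made 8 false calls, with 28 of 50 found at 2-fold and 40 of 50 at 4-fold. For the comparison of diets, 137 of 200 were found among 16361 genes, with 6 false calls, 11 of 50 at 2-fold and 35 of 50 at 4-fold. The transcripts of the 144 genes named were compared with all others by BLAST 2.17.0, and 39 had a stretch of at least 100 bases with 95% identity in another gene. That search covered both strands and kept genes that overlap in position, so such a stretch need not be a copy elsewhere in the genome. Overlap with a gene on the same strand was found for 7 and on the opposite strand for 37.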

Additional observations from a re-analysis of the deposited data

How the results depend on the processing

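With RLE or upper-quartile factors, or at least 0.5 CPM in 3 libraries, the number of genes called between the days stayed between 284 and 301. DESeq2 called 580 (403 higher, 177 lower), keeping all genes with 1 count 478 (350 higher, 128 lower), the 6 libraries of d3 and d5 alone 818 (477 higher, 341 lower), and DESeq2 on those 6, added after seeing the data, 1603 (811 higher, 792 lower). A fit of all 30 libraries called 220 (189 higher, 31 lower) and a test for a change of at least 1.5-fold 75 (72 higher, 3 lower). The share of higher genes was 69.5% in DESeq2, 73.2% with all genes kept, 58.3% in the 6 libraries, 50.6% in DESeq2 on them and 96% for the 1.5-fold change, against 83.2%. With 1 mouse left out the count ranged from 90 to 216, that of higher genes from 76 to 180 and that of lower genes from 12 to 49. The cause of these differences was not tested.

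Of 109 called genes named in the text, 36 were called whichever mouse was left out, and 68 lost their call without d3 mouse 1, 45 without d3 mouse 2, 27 without d3 mouse 3, 44 without d5 mouse 1, 41 without d5 mouse 2 and 28 without d5 mouse 3. The fold of 18 of the 109 moved by over 1.5 times in at least 1 of these fits. The log2 fold change turned its sign in 4 uncalled genes. Over the fits with 1 mouse left out, Spp1 ranged from -0.0488 to 0.544, Cxcl16 from -0.210 to 0.0841, Cd3e from -0.734 to 0.841 and Pecam1 from -0.0654 to 0.173. Each callus was harvested once, so mice of d3 and d5 with the same number are different animals. Their deviations from the mean of the day had correlations of -0.18, -0.10 and -0.02. Pairs with different numbers reached 0.17, and with 3 mice a day such values cannot decide whether the numbers link the samples otherwise. The replicate block gave 234 calls (200 higher, 34 lower), 226 of them among the 285, and 0 for the comparison of diets.

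For the comparison of diets DESeq2 called 26 genes and keeping all genes with 1 count 1, while the other scalings, the filter at 0.5 CPM, the fit of 24 libraries and each fit without a mouse gave 0. Genes with under 20 reads on d3 have imprecise folds, and with 3 mice a group many changes of 2-fold were missed in the simulation.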
